A study of Homo sapiens with 2 samples.

Results

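The genes examined here were the transcription factor NRF2 (gene NFE2L2), its inhibitor KEAP1 and 8 genes of the antioxidant response that NRF2 controls: NQO1, GCLC, GCLM, TXNRD1, SRXN1, HMOX1, TXN and OSGIN1. They were listed by name, and all 10 of them were found among the 19775 genes measured. They had 20 probe sets that carry 1 gene symbol, and the rule that lists them uses no measured value. The members and the gene lists used below were, however, chosen with earlier results of these data known. The comparison was between HCC4006, an EGFR-mutant human NSCLC cell line with an exon 19 deletion that is sensitive to erlotinib, and HCC4006ER, its erlotinib-resistant derivative, which keeps that deletion and whose labels give an EMT phenotype. HCC4006ER cells were selected as a population over 3 months in erlotinib rising from 3 nM to 4 μM. Both lines were grown for 48 hours in medium with 10% FBS without further treatment, and RNA of 3 preparations per line was mixed and hybridized to 1 Affymetrix HG-U133 array. Whether erlotinib was in the medium of HCC4006ER cells during those hours is not given in the sources used here.

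NRF2 is a basic leucine zipper factor that pairs with small MAF proteins on antioxidant response elements in DNA. In unstressed cells KEAP1, a cysteine-rich adaptor of the CUL3 ubiquitin ligase, holds NRF2 and has it degraded, and oxidants or electrophiles that modify KEAP1 let NRF2 accumulate. NRF2 is thus regulated largely at the protein level, which an RNA array does not measure. In lung adenocarcinoma and squamous carcinoma, mutations of KEAP1 or NFE2L2 are known to raise the expression of NRF2 target genes. The KEAP1 and NFE2L2 mutation status of these lines is not given in the sources used here.

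The arrays are called HCC4006 and HCC4006ER after their labels. The signal of a probe set is its MAS5 intensity on a linear scale. A signal was taken as above background where it reached the level under which 95% of 127 probe sets for olfactory or bitter taste receptors lay, 96.2 for HCC4006 and 91.6 for HCC4006ER. Where a gene had several probe sets, the brightest by mean log2 signal gave its value. A log2 fold is that of HCC4006ER over HCC4006, so that positive values are higher in HCC4006ER, and the threshold was 1.5-fold. For counts, a signal under background was raised to that level, and such a fold is given as at least its size. With 1 array of pooled RNA per line there were no replicates, so no test was made and each difference is a description of these arrays. In bulk RNA, fewer cells that express a gene and less RNA per cell cannot be told apart. As a guide to technical disagreement, the log2 folds of 5264 genes with several probe sets had a pooled SD of 0.27 within a gene.

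The array labelled HCC4006ER was checked against the EMT phenotype in its label. ZEB1, a transcription factor that drives EMT, was under background in all 4 of its probe sets, of which the brightest had signals of 42.5 and 53.1. E-cadherin (CDH1) had a log2 fold of 0.08 and vimentin (VIM) was 1.53-fold higher. ZEB1 and CDH1 thus did not follow the EMT phenotype of the label, and VIM alone of these 3 genes moved in its direction past the threshold. The paper that reported these arrays describes ZEB1 as much higher and E-cadherin as lost at the mRNA level in HCC4006ER. The values used here do not reproduce those 2 results, and the reason was not tested. HCC4006ER therefore stands throughout for the array labelled so, and every fold and direction given here depends on that label. All 8 epithelial markers were above background on both arrays, with summed signals of 90603 for HCC4006 and 89699.5 for HCC4006ER. Of 7 fibroblast markers 1 was above background on each array, COL1A1 (1.63-fold higher in its brightest probe set, although 2 of its 3 probe sets above background were lower), and the summed signals were 878 and 1165. Of 4 leukocyte markers measured, 1 and 0 were above background, with sums of 285 and 161, and of 5 endothelial markers 1 was on each array, with sums of 322 and 292. The part of these markers in the results was not tested. The ratio of 3′ to 5′ signal, a measure of intact RNA, was 0.933 and 0.890 for GAPDH and 1.09 on both arrays for ACTB. The median signal was 63.4 and 57.7, under the background level of each array. Scaling both arrays to the same median raised every log2 fold by 0.14. With it the median of all genes moved from -0.10 to 0.04.

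The core of the antioxidant response element, TGACNNNGC in its 5′ to 3′ letters, was searched on both strands of RefSeq promoter windows (build GRCh38.p14, 250 bases before to 50 bases after a transcription start). Windows were found for 9 of the 10 members, all but HMOX1, and those of 3 genes, GCLM, TXNRD1 and KEAP1, held the core. Of all 27305 genes with a window, 16.1% held it. The windows that held the core are shown, among them those of GCLM, the member with the lowest log2 fold, and of TXNRD1, which with OSGIN1 had the highest, both 0.52. Each runs from 250 bases before the start to the first base of the transcript, 5′ to 3′ in the direction of the gene, with every match to the core in capitals. A match on the opposite strand appears as its reverse complement.
GCLM, chr1:93909430-93909680, minus strand: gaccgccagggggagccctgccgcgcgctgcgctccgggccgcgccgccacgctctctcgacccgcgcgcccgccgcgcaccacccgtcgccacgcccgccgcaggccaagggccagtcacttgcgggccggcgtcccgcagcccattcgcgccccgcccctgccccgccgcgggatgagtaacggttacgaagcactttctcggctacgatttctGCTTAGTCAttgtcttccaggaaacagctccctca
TXNRD1, the first of 2 windows, chr12:104215529-104215779, plus strand: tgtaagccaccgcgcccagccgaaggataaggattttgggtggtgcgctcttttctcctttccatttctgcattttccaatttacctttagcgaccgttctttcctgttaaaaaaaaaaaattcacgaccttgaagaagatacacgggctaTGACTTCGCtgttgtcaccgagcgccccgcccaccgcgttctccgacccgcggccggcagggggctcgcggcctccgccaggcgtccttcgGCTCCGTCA
TXNRD1, the other window, chr12:104286782-104287032, plus strand: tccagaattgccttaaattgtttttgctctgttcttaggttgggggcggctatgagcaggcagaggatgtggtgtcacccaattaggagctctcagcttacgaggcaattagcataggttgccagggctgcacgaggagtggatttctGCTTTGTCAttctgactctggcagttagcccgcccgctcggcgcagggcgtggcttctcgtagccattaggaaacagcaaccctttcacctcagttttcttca
KEAP1, the other of 2 windows, chr19:10502771-10503021, minus strand: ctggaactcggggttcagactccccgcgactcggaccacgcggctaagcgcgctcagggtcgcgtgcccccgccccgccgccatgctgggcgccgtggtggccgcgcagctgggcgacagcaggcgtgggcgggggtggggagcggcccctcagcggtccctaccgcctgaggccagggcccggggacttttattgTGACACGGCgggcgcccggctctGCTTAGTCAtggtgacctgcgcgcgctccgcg
With the first transcribed base as position 0, the GCLM match lay from -34 to -26 on the opposite strand and read TGACTAAGC. The same 9 letters were found on the opposite strand of the KEAP1 window from -31 to -23, beside TGACACGGC on the strand of the gene from -54 to -46. The first TXNRD1 window held TGACTTCGC from -99 to -91 and, on the opposite strand, TGACGGAGC from -8 to 0. The other TXNRD1 window held TGACAAAGC on the opposite strand from -102 to -94. None of these matches touched TGACTCA or TGAGTCA, the letters of an AP-1 site. A match is a string of letters, not a site shown to be bound, and a window without a match says only that the letters are not within it.

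GCLM was the only member past 1.5-fold as deposited. It was 2.08-fold lower in HCC4006ER, and the other 9 members lay within the threshold, from KEAP1 with a log2 fold of -0.48 to OSGIN1 with 0.52. Thus 1 of 10 members (10.0%) was lower and 0 were higher. Over all 19775 genes 6.72% were lower and 4.80% were higher, and over the 10849 genes above background on both arrays, as all 10 members were, 10.2% were lower and 7.71% were higher, so the members' share was near the background. The members' median log2 fold was -0.27, where that of genes above background on both arrays was -0.03. With same-median scaling the members' median was -0.13, a shift shared by every gene. It was -0.20 with the mean of all probe sets and -0.07 with the mean of those above background, dim signals not raised. Without probe sets ending in _x_at or _s_at, which leaves out NQO1, it was -0.05. Of the members, 7 had a log2 fold below 0 and 3 above it, and TXN, at -0.01, was the 1 member whose sign turned with another scaling. After same-median scaling, 1 member was lower and 2 were higher (TXNRD1 and OSGIN1, both 1.57-fold), when 4.45% of all genes were lower and 7.46% higher. The share of lower genes among all those past the threshold went from 58.3% to 37.4%. That scaling rests on medians that lie under background. When the median was taken over probe sets above background, or with quantile normalization, 1 member was lower and 0 were higher, as deposited.

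**Figure D1:**
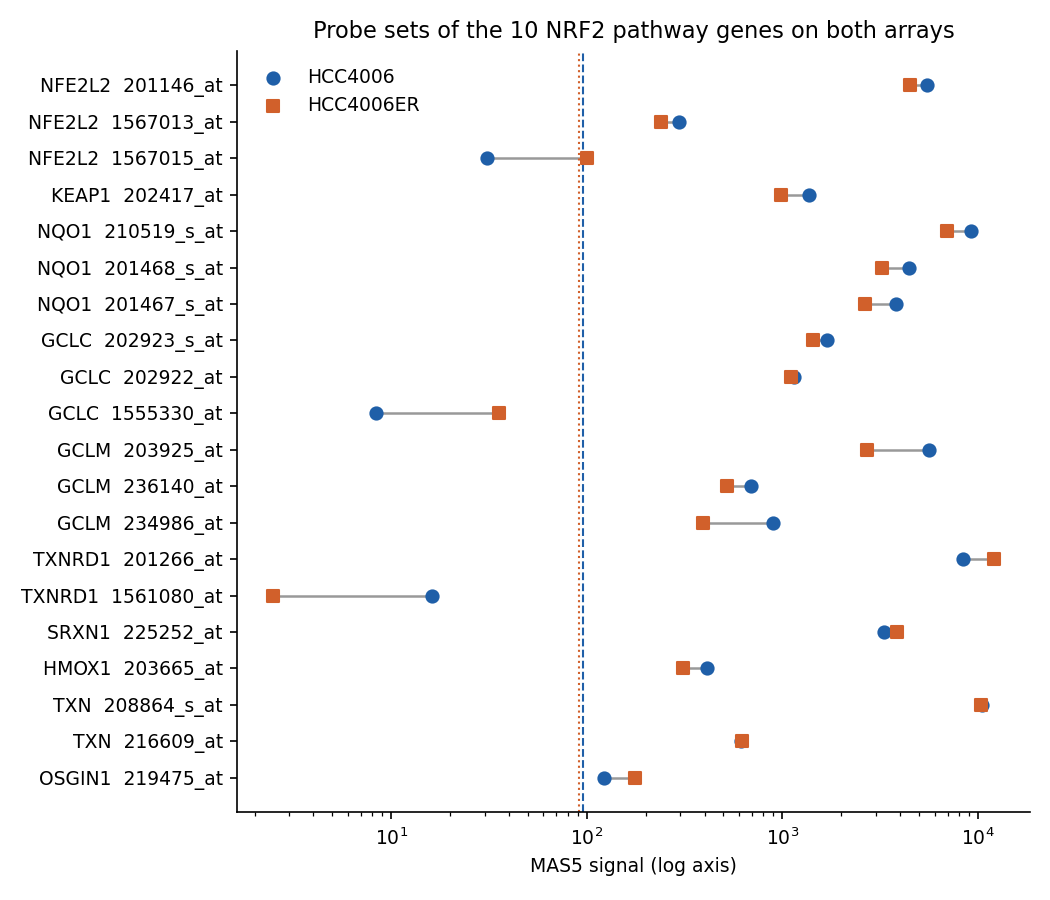
MAS5 signal on a log axis for the 20 probe sets of the 10 members, with HCC4006 as circles and HCC4006ER as squares. The dashed and dotted lines are the background levels of 96.2 and 91.6. All 3 GCLM probe sets have the square to the left of the circle, the main TXNRD1 probe set has it to the right, and 3 probe sets have at least 1 signal under background.

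NRF2 and its inhibitor both had slightly lower signals in HCC4006ER. NFE2L2, which encodes NRF2, read 5519 for HCC4006 and 4520 for HCC4006ER, a log2 fold of -0.29. Another of its probe sets, dimmer but above background on both arrays, read 295 and 239, a log2 fold of -0.30. The dimmest read 31.0 and 100.2, the former under background, so that it gives at least 1.04-fold in the other direction. The pair of brighter probe sets therefore agreed and the dim one did not follow them. KEAP1 had 1 probe set, which read 1374 and 986, a log2 fold of -0.48 or 1.39-fold lower. Its difference from NFE2L2 was 0.19 on the log2 scale, less than the SD of 0.27 between probe sets of a gene.

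The genes of glutathione synthesis were unequal. Glutamate-cysteine ligase, which makes the rate-limiting step of it, has a catalytic subunit encoded by GCLC and a modifier subunit encoded by GCLM. GCLM read 5651 for HCC4006 and 2722 for HCC4006ER. Its other probe sets read 891 and 394, or 2.26-fold lower, and 690.3 and 522, or 1.32-fold lower. All 3 GCLM probe sets were thus lower in HCC4006ER, 2 of them past 1.5-fold. Of 11896 genes above background on at least 1 array, 374 (3.14%) had a lower log2 fold than GCLM. Among the 4971 genes with signals of 1000 or more on both arrays, to which GCLM belongs, 4.59% were lower past 1.5-fold and 4.83% were higher. At 2-fold GCLM still passed, with 2.14% of all genes lower by that much and 1.43% higher.

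GCLC read 1696 and 1432, a log2 fold of -0.24, and its next probe set read 1146 and 1109, a log2 fold of -0.05. Its dimmest probe set, at 8.32 and 35.6, was under background on both arrays and gives no fold. The log2 folds of GCLC and GCLM differed by 0.81, a 1.75-fold unequal change of the subunits that does not depend on a common scaling of the arrays. It does depend on the probe sets, here the brightest of each gene. Over probe sets above background on both arrays, GCLM ran from -1.18 to -0.40 and GCLC from -0.24 to -0.05.

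In the thioredoxin system TXNRD1 had a higher signal in HCC4006ER, under the threshold, and TXN was level. TXNRD1, the cytosolic thioredoxin reductase, read 8418 for HCC4006 and 12045 for HCC4006ER, 1.43-fold higher. Its log2 fold of 0.52 was exceeded by 9.92% of genes above background. The other TXNRD1 probe set read 16.2 and 2.50, under background on both arrays. TXN encodes thioredoxin, the protein that TXNRD1 reduces, and read 10448 and 10398, a log2 fold of -0.01. Its dimmer probe set read 614 and 621, a log2 fold of 0.01. SRXN1, sulfiredoxin, which repairs overoxidized peroxiredoxins, read 3327 and 3866, a log2 fold of 0.22. TXNRD1 and GCLM differed by 1.57 on the log2 scale, and SRXN1 and GCLM by 1.27.

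NQO1, the quinone reductase often used as a readout of NRF2 activity, read 9245 for HCC4006 and 6934 for HCC4006ER, 1.33-fold lower. Its other probe sets read 4445 and 3215, and 3811 and 2648. All 3 were above background and lower in HCC4006ER, with log2 folds from -0.53 to -0.41, so the direction was shared although none passed 1.5-fold. All 3 NQO1 probe sets have the suffix of sets that match more than 1 transcript. HMOX1, heme oxygenase 1, is repressed by BACH1 as well as induced by NRF2. It read 411 and 311, a log2 fold of -0.40, in its only probe set. OSGIN1, an oxidative stress-induced growth inhibitor, read 123 and 175, a log2 fold of 0.52. Both OSGIN1 signals lay close to background, and at a stricter level, the 99th percentile of those receptor signals (142 and 163), the HCC4006 signal was under it.

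**Figure D2:**
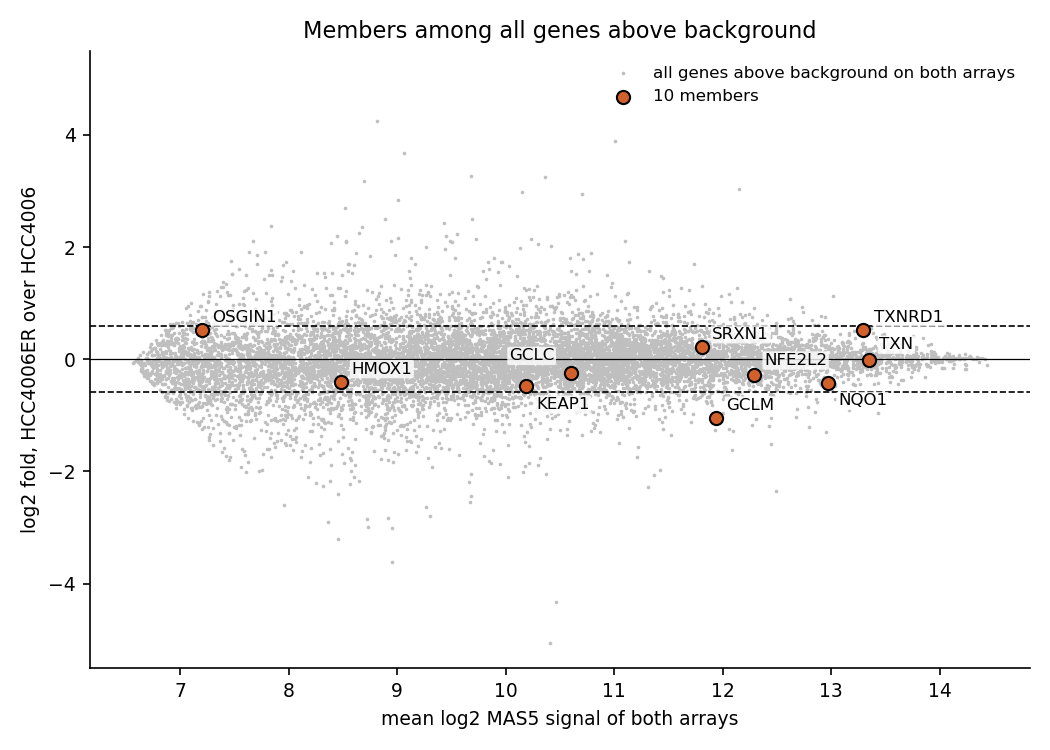
Log2 fold of HCC4006ER over HCC4006 against the mean log2 signal of both arrays, for the 10849 genes above background on both (gray) and the 10 members (orange). The dashed lines mark 1.5-fold. GCLM lies under the lower line at -1.05, and TXNRD1 and OSGIN1 lie just under the upper line at 0.52.

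The other genes of the pathway were taken from 7 lists with 104 genes, and 96 of them were measured by single-symbol probe sets. Because these lists were chosen with earlier results of the data known, their shares are descriptive. Among the 96, 9 (9.38%) were higher and 20 (20.8%) were lower past 1.5-fold, against 4.80% and 6.72% of all genes. Over the 81 that were above background on both arrays, 9 (11.1%) were higher and 14 (17.3%) were lower, against 7.71% and 10.2% of all genes above background on both. Their median log2 fold was -0.02, beside -0.03 for all genes above background on both arrays. The directions by list are given in turn.

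In the mixed list of NRF2 regulators and partners, more genes were higher than lower past 1.5-fold in HCC4006ER. Of 14 regulators and partners measured, 7 were higher past 1.5-fold, 1 was lower and 6 lay within it. All but 1 of the 14 were above background on both arrays, and over those 13 the median log2 fold was 0.63 and 53.8% were higher, against 7.71% of all genes above background on both. MAFF, a small MAF protein that lacks a transactivation domain and pairs with NRF2 or with BACH factors, read 1066 for HCC4006 and 2629 for HCC4006ER, 2.47-fold higher, and both of its probe sets were higher. MAFG, another small MAF protein, was 1.58-fold higher. BACH1, the repressor that competes with NRF2 for antioxidant response elements, read 540.3 and 1155, 2.14-fold higher in its only probe set above background on both arrays. NFE2L3, a factor related to NRF2, was 2.36-fold higher in a probe set that read 758 and 1789. PGAM5, a mitochondrial phosphatase that binds KEAP1, was 1.74-fold higher. The log2 folds of MAFF and BACH1 exceeded that of NFE2L2 by 1.59 and 1.38.

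The subunits of the KEAP1 ligase lay within 1.5-fold. RBX1, its RING subunit, read 6402 and 6921, a log2 fold of 0.11, and SQSTM1, which encodes the KEAP1-binding autophagy receptor p62, read 6200.4 and 5384, a log2 fold of -0.20. CUL3, the scaffold of the ligase, had a log2 fold of -0.13. CREBBP, an acetyltransferase that serves as a coactivator of NRF2, was the 1 gene of the list that was lower, 1.59-fold, and with same-median scaling 0 were. When each gene was instead given the mean of its probe sets, dim ones included, 3 regulators were higher in place of 7.

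Enzymes and transporters of quinone, carbonyl and xenobiotic metabolism were lower or within 1.5-fold in HCC4006ER. Of 19 measured, 9 (47.4%) were lower past 1.5-fold and 0 were higher. For 5 of these 19 only HCC4006 was above background, and 3 were under it on both arrays. Among the 11 above background on both arrays, 5 (45.5%) were lower, against 10.2% of all such genes, and 0 were higher, with a median log2 fold of -0.58. AKR1B10, an aldo-keto reductase that is a common marker of NRF2 activity, read 281 for HCC4006 and 91.5 for HCC4006ER, at least 3.07-fold lower. The aldehyde dehydrogenase ALDH3A1 read 275 and 49.7, at least 3.0-fold lower. AKR1C1 was at least 2.31-fold lower, in a probe set whose suffix marks possible cross-hybridization, as can occur among the near-identical AKR1C genes. ABCG2, a drug efflux transporter, read 747 and 294, 2.54-fold lower, and the carbonyl reductase CBR3 read 1222 and 590.1, 2.07-fold lower. In contrast, the bright genes PTGR1 and UGDH of the same list had log2 folds of 0.06 and 0.13. Over all alternative ways of processing at 1.5-fold, 5 to 11 genes of this list were lower and 0 or 1 was higher.

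**Figure D3:**
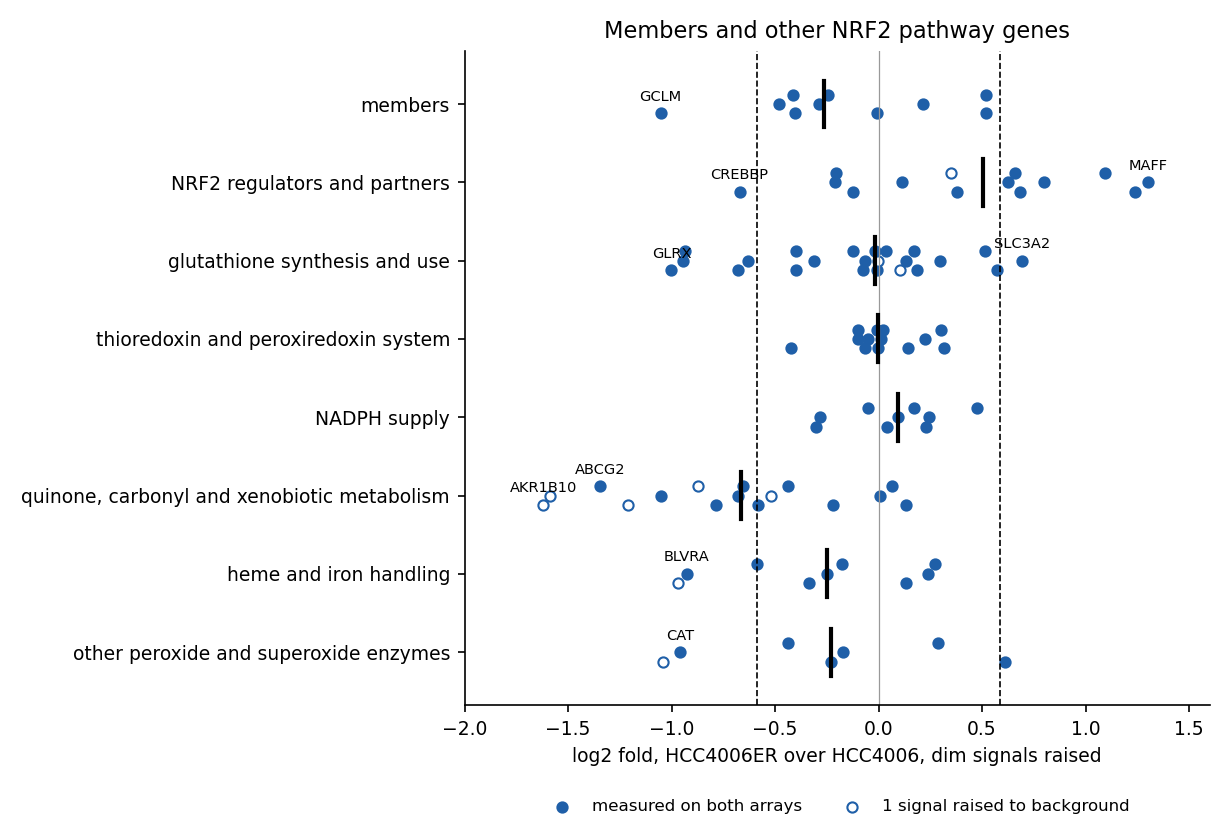
Log2 fold of HCC4006ER over HCC4006 for the 10 members and the 7 pathway lists, with each point 1 gene above background on at least 1 array. Open points had 1 signal raised to background, black bars are medians over the points shown and dashed lines mark 1.5-fold. Of the 14 regulators 10 lie right of 0, with MAFF at 1.30, most of the xenobiotic list lies to the left, with ABCG2 at -1.35, and the thioredoxin and NADPH lists stay within the lines.

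Glutathione genes other than GCLC and GCLM differed in both directions. Of 24 measured, 1 was higher (4.17%) and 5 were lower (20.8%), against 4.80% and 6.72% of all genes, with a median log2 fold of -0.02 over the 23 above background. Over the 21 above background on both arrays, 1 was higher (4.76%) and 5 were lower (23.8%), against 7.71% and 10.2% of all such genes. With same-median scaling 3 were higher and 3 were lower. The glutaredoxin GLRX read 1191 for HCC4006 and 595 for HCC4006ER, 2.0-fold lower, and both of its probe sets were lower. The secreted glutathione peroxidase GPX3 was 1.91-fold lower in a probe set that read 2212 and 1158. GSTM2 was 1.92-fold lower, in a probe set whose suffix marks possible cross-hybridization with related GSTM genes. SLC3A2, the heavy chain of the cystine transporter, was 1.62-fold higher, whereas SLC7A11, the light chain and an NRF2 target, had a log2 fold of -0.31 with all 3 of its probe sets lower. The bright genes MGST1 and GPX1 had log2 folds of -0.02 and -0.40.

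No gene of the thioredoxin and peroxiredoxin list or of the NADPH list passed 1.5-fold as deposited. All 13 and 9 genes measured were above background on both arrays, where 7.71% of all genes were higher and 10.2% lower. With lists this short, few genes past the threshold would be found at those shares. With same-median scaling 1 NADPH gene was higher past it, and 1 thioredoxin or peroxiredoxin gene was without probe sets ending in _x_at or _s_at. The 13 thioredoxin and peroxiredoxin genes measured had log2 folds from -0.42 to 0.32, with PRDX1 at -0.10 and PRDX3 at 0.32. The 9 genes of NADPH supply, the reducing power of both the glutathione and the thioredoxin systems, had log2 folds from -0.30 to 0.48, with the transketolase TKT at -0.28 and MTHFD2 at 0.23. TXNRD1, at 0.52, therefore lay above every gene of both lists.

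Among 9 genes of heme and iron handling, 3 (33.3%) were lower, against 6.72% of all genes, and 0 were higher. Of the 8 above background on both arrays 2 were lower (25.0%, against 10.2% of all such genes). The biliverdin reductases, which act on the product of heme oxygenase, were both lower, BLVRA 1.90-fold (4074 and 2144, with all 4 of its probe sets above background lower) and BLVRB 1.50-fold, just past the threshold. With same-median scaling 2 genes of this list were lower. The iron exporter SLC40A1 was at least 1.96-fold lower. Ferritin light chain (FTL) and the transferrin receptor (TFRC) had log2 folds of 0.27 and 0.24. Of 8 other enzymes and regulators of peroxide and superoxide, 2 were lower and 1 was higher, and of the 6 above background on both arrays 1 was lower and 1 was higher (16.7% each, against 10.2% and 7.71% of all such genes). Catalase (CAT) read 15432 and 7934, 1.95-fold lower, and SESN3 was at least 2.06-fold lower, while SESN2 was 1.53-fold higher. SOD1 had a log2 fold of 0.29 and PON2 of -0.44.

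The core of the antioxidant response element was searched in the same way for the other pathway genes that had a promoter window, which 8 of the 9 higher genes and 15 of the 20 lower genes did. It was found for 2 of these 8, for 5 of these 15 and for 15 of 57 genes within 1.5-fold. These shares of 25.0%, 33.3% and 26.3% were above the 16.1% of all genes with a window and rest on small numbers of genes. The 16.1% was not limited to genes measured here. A gene counted if any of its windows held the core, and the number of windows per gene was not matched.

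Scaling and the treatment of dim probe sets moved single members. With the mean of all probe sets, the dim sets described above took TXNRD1 from 0.52 to -1.09, GCLC from -0.24 to 0.60 and NFE2L2 from -0.29 to 0.37. These means take dim signals as they are. With dim signals raised to background, the same means were 0.22, -0.12 and -0.18. GCLM stayed past 1.5-fold lower under each alternative at that threshold, with log2 folds from -1.06 to -0.88.

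**Figure D4:**
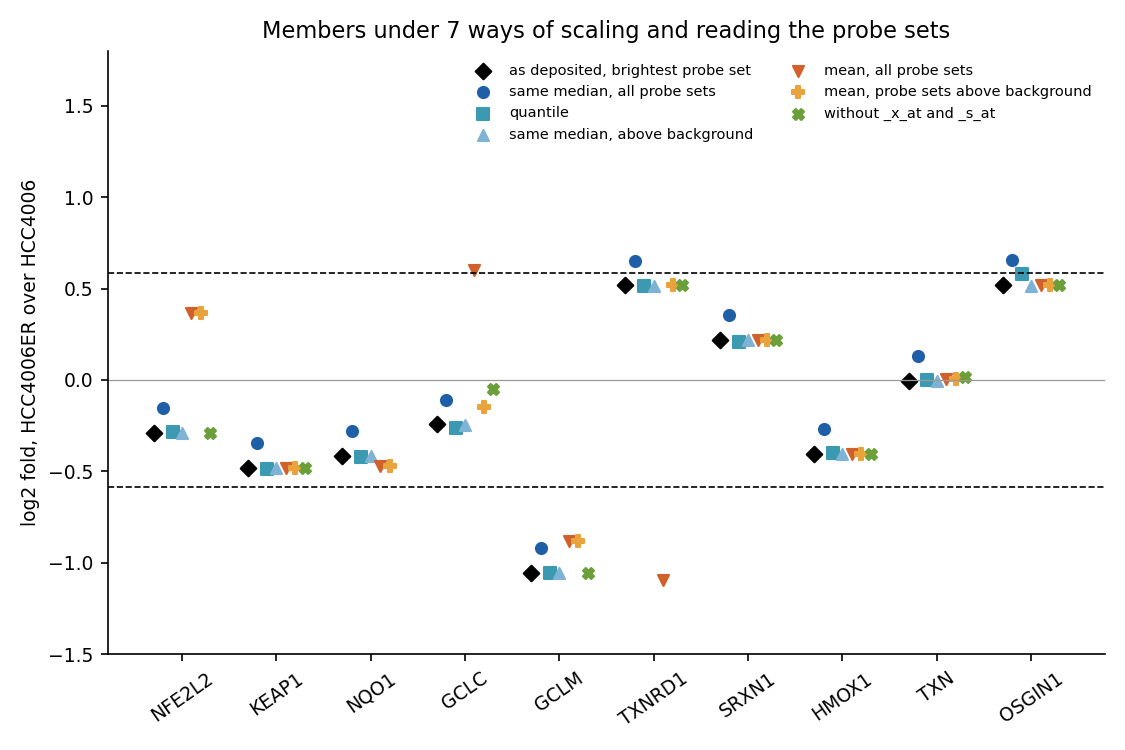
Log2 fold of HCC4006ER over HCC4006 for the 10 members as deposited and under 6 alternatives of scaling or probe set choice. Each symbol is 1 setting and dashed lines mark 1.5-fold. GCLM stays under the lower line in all settings, and NFE2L2, GCLC and TXNRD1 move when dim probe sets are averaged in. Dim signals are not raised to background here.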

How the data were processed

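HCC4006 and HCC4006ER cells were measured on 1 Affymetrix HG-U133 array each. The authors deposited 1 MAS5 signal intensity per probe set on a linear scale (the submitters' processing notes also name GCOS 1.4), without detection calls in the values used here, for 54675 probe sets. Each array had been scaled before deposit to nearly the same trimmed mean (500.06 on both, without 2% at each end). Depth has no meaning for arrays, and precision is limited by their number.

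Gene names came from the platform annotation, in which 41097 probe sets had 1 symbol, 1801 had several and 11777 were not listed. Symbols were updated by gene identifier from RefSeq (GRCh38.p14), which held 41043 of the 41097. Groups followed the cell line given in the labels. The members and gene lists were chosen with earlier results of these data known. Named were all members, and from each list up to 4 genes past 1.5-fold and 2 bright genes within it. MAFG, CREBBP, CUL3, CBR3 and SLC7A11 were named after their values were seen. Genes without a single-symbol probe set, such as MAFK, and protein sequences were not analysed here. The calculation was tested on simulated data. Alternatives were 3 scalings, 3 choices of probe set, 2 treatments of dim signals, a filter on low signals and a 2-fold threshold. Calculations ran in Python 3.11.15 with pandas 2.3.3, numpy 2.4.6 and scipy 1.17.1, and figures in matplotlib 3.10.9.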

Additional observations from a re-analysis of the deposited data

How the results depend on the processing

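Of 128 values recomputed under 10 alternatives, 118 moved by less than the pooled SD of 0.27 between probe sets of a gene or, for counts, by no more than 1.5 times, and 10 moved further. Member log2 folds and their median were recorded without raising dim signals, so the 2 treatments of dim signals could not alter them. The filter on low signals left out no member. The 118 therefore include values that could not move. GCLM, the 1 member past 1.5-fold as deposited, kept its sign in each alternative. TXNRD1 was past 1.5-fold higher under 1 alternative (0.65 on the log2 scale, same-median scaling). Its mean over all probe sets was -1.09, which takes in a probe set under background on both arrays. With dim signals raised that mean was 0.22, so TXNRD1 was not counted as lower. Same-median scaling put 2 members higher past 1.5-fold in place of 0, the change of scale being the same for every gene. Quantile normalization and scaling to the median over probe sets above background kept 0 higher. Averaging over all probe sets of a gene gave log2 folds of 0.37 for NFE2L2 and 0.60 for GCLC, or -0.18 and -0.12 with dim signals raised. It left 5 of the other pathway genes higher in place of 9. The mean over probe sets above background on at least 1 array also gave 0.37 for NFE2L2, or -0.18 with dim signals raised. Without probe sets whose names end in _x_at or _s_at, 5 pathway genes were higher and 13 were lower in place of 20, but only 75 of 96 had a value, and NQO1 had none. At 2-fold, 3 pathway genes were higher and 7 were lower. Beyond the dim probe sets and the fewer genes or higher threshold of these alternatives, the cause was not tested. Over all genes, 2574 were higher and 4550 lower with no floor on dim signals, 1475 and 880 with same-median scaling and 625 and 898 with the mean over all probe sets, in place of 950 and 1328. No paired analysis was possible because each cell line had 1 array and no test was made. No array could be left out for the same reason, and array, culture and cell line cannot be told apart.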
